A study of Mus musculus with 14 samples.

Results

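The mitochondrial ribosomal proteins are described here as the 76 genes whose single platform symbol starts with Mrpl (47 genes, named for the large subunit) or Mrps (29 genes, named for the small subunit). Each gene was represented by the probe set, a group of short probes for 1 transcript, with the highest mean signal over 14 arrays. The 76 genes had 156 probe sets among the 45101 on the array, and all 76 passed the filter on low signal, which left 12944 genes in all.

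The mitochondrial ribosome translates the messenger RNAs of mitochondrial DNA, which encode core subunits of the respiratory chain and of ATP synthase. Its own proteins are encoded in the nucleus, made in the cytosol and imported, whereas its ribosomal RNAs come from mitochondrial DNA. The small subunit binds and decodes the messenger RNA, and the large subunit forms the peptide bonds and holds the exit tunnel for the nascent chain. Adipocytes of the brown and beige type carry many mitochondria, which burn fuel to release heat.

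The RNA was from the subcutaneous white fat of 12-week-old male mice of C57BL/6, a common inbred strain. The exercised group (7 arrays) had wheel cages for 11 days, the sedentary group (7 arrays) served as control, and the labels name no transgene or drug for either. The comparison asked how voluntary running altered this fat depot. No label says whether each array held RNA of a separate animal, so p-values reflect only how far these samples spread, and that spread may be technical.

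The tissue carried its defining adipocyte transcripts on every array. Signals of Adipoq, which encodes adiponectin, ranged from 48832.5 to 69118.5 and those of Fabp4, the fatty acid carrier of adipocytes, from 85538.8 to 109065.5. Array medians ranged from 531.3 to 617.4 signal units. All values come from whole tissue, so fewer cells of a type and less RNA per cell cannot be told apart. Some arrays stood apart in other markers. Sedentary array 5 had the highest macrophage mean (13.23 on the log2 scale) and the lowest mature adipocyte mean (14.07), and sedentary array 7 had the lowest brown and beige mean (8.75). Lymphocyte means were 8.99 on sedentary array 7, 8.69 on exercised array 5 and 10.11 on exercised array 7, against 11.64 to 13.10 on the other arrays.

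The promoters of these genes are shown first, because coordinated expression of nuclear genes for mitochondria is known to involve the factors NRF1, GABPA (an ETS factor), YY1 and the estrogen-related receptors. RefSeq promoter windows of 300 bases (assembly GRCm38.p6, 250 bases before to 50 after the start) were held for 67 of the 76 genes, in 73 windows. The letters searched on both strands were GCGCATGC (NRF1), CCGGAAG (ETS), AAGATGG (YY1) and AAGGTCA (estrogen-related receptors). Matches of GCGCATGC and its reverse complement can overlap within 1 palindromic stretch. Below are the 100 bases before the start, 5′ to 3′, with matches in capitals, for 5 members that rose in exercised tissue: 4 with small p in their subunit, and Mrps18a. Mrps18a was added after its sequence was seen, because its window held more than 1 kind of match. Mrps16 had windows for more than 1 annotated start, and the one shown is that with a match.

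Mrpl12, chr11:120484537-120484636, plus strand: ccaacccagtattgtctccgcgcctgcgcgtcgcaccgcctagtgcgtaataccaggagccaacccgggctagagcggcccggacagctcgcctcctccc

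Mrpl42, chr10:95501950-95502049, minus strand: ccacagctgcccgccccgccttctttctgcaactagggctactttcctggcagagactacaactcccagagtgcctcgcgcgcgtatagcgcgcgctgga

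Mrps2, chr2:28467966-28468065, plus strand: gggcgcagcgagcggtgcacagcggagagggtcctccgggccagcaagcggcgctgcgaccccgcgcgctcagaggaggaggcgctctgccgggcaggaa

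Mrps16, chr14:20393491-20393590, minus strand: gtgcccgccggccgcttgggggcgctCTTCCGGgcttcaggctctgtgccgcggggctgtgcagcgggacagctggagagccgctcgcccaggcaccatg

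Mrps18a, chr17:46110904-46111003, plus strand: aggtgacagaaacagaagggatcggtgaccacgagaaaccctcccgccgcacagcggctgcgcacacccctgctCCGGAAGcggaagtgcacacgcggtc

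The stretches of Mrpl12, Mrpl42 and Mrps2 held none of the searched letters, although outside these stretches the window of Mrpl12 held those of the estrogen-related receptors and that of Mrpl42 held those of YY1, and those of Mrps16 and Mrps18a held the ETS letters once each. The window of Mrps18a also held YY1 letters outside the stretch. Next are 4 members that hold more than 1 kind of match in their windows and were not called in the comparison below. They were chosen after their sequences and values were seen.

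Mrpl22, chr11:58171564-58171663, plus strand: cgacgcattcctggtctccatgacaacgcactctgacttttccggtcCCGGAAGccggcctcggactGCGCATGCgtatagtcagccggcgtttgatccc

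Mrpl32, chr13:14613038-14613137, minus strand: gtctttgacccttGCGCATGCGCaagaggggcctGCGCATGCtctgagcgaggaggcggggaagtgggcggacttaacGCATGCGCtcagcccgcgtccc

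Mrpl52, chr14:54426809-54426908, plus strand: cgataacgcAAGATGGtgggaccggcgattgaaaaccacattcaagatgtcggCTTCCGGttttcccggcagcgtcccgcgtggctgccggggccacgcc

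Mrpl36, chr13:73330909-73331008, plus strand: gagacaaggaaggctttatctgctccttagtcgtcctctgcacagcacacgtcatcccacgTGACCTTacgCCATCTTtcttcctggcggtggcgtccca

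The stretch of Mrpl32 held the NRF1 letters at several places, Mrpl22 had NRF1 and ETS letters, Mrpl52 had ETS and YY1 letters, and Mrpl36 had those of the estrogen-related receptors and YY1. Over all member windows, ETS letters were found in 25 of 73 (34.2%), against 15.6% of 13310 windows of genes tested and 8.86% of all 32851 windows. YY1 letters were in 17.8% of member windows and 6.64% of windows of genes tested, NRF1 letters in 11.0% and 4.74%, and those of the estrogen-related receptors in 5.48% and 3.44%. Cytosolic ribosomal proteins had ETS letters in 40% of 50 windows, and complex I subunits in 12.5% of 32, below the share in genes tested. Among members called higher in exercised tissue, 6 of 13 genes (46.2%; 37.5% of 16 windows) held any of the 4 motifs, and among those not called 33 of 54 genes (61.1%; 57.9% of 57 windows) did. Of the windows of genes tested, 27.2% held any. A match describes the letters of these windows and not a bound site.

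Of the 76 mitochondrial ribosomal protein genes, 15 rose in exercised tissue and 0 fell (limma, adjusted p under 0.05), a share of 19.7%, where 4.0% of all genes tested were called higher and 1.53% lower. Without adjustment, 31 members passed a p of 0.05 upward and 0 downward, against 11.3% of all genes higher. Differences were positive in 65 of 76 members (85.5%), where 45.0% of all genes tested had a positive difference. The changes were small. The median log2 difference, exercised minus sedentary, was 0.17 over the members and -0.03 over all genes tested, and the members ranged from -0.14 to 0.50. By the chosen probe sets, the member with the greatest difference, Mrps36, rose 1.42-fold.

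**Figure D1:**
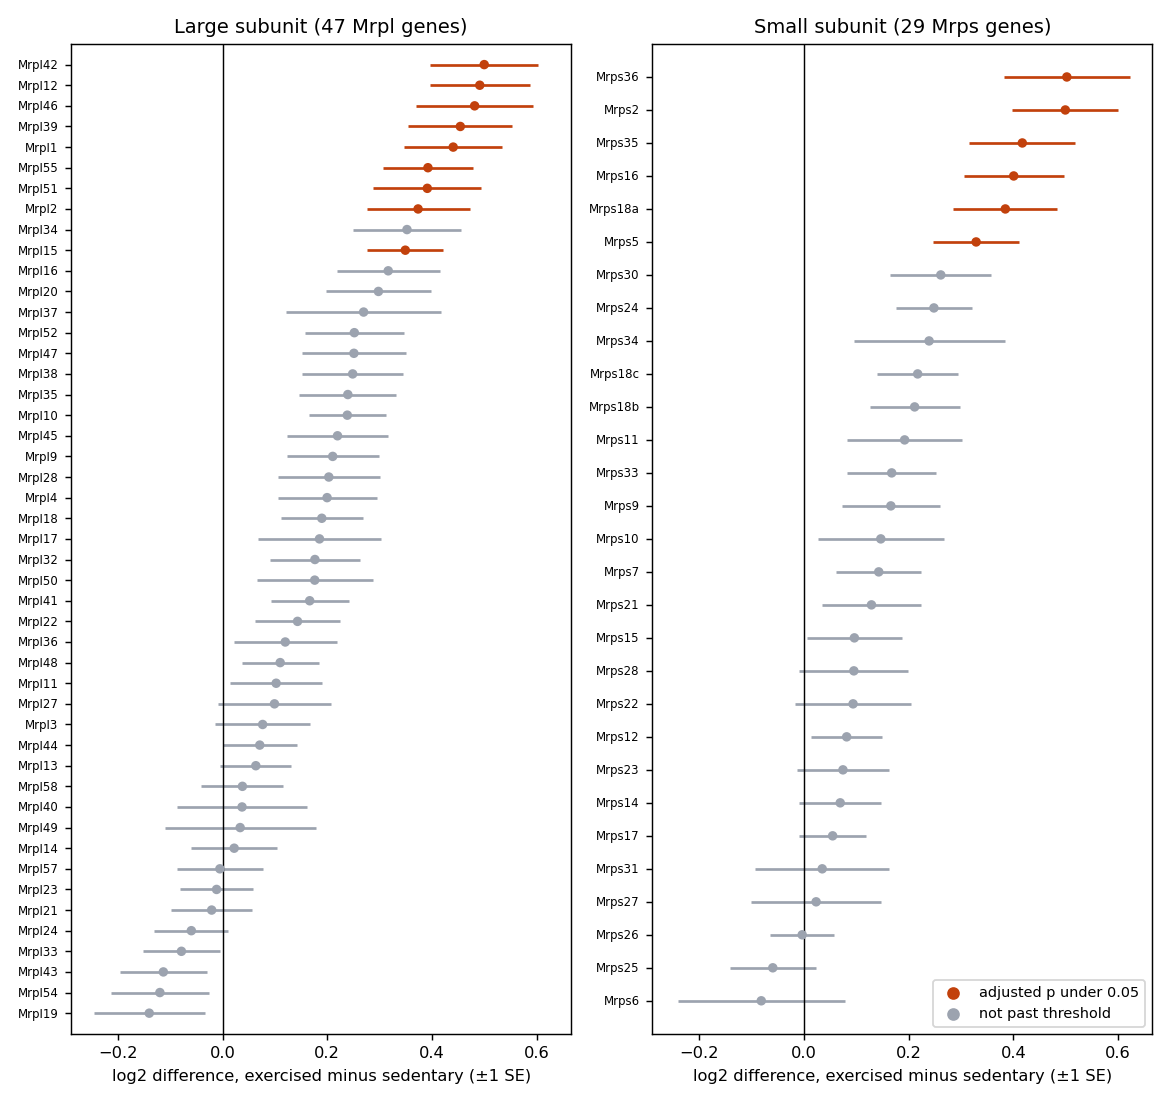
Log2 difference between exercised and sedentary tissue for each of the 47 Mrpl and 29 Mrps genes, with bars of 1 SE. The 15 genes past the threshold all lie to the right of 0, between 0.33 and 0.50, and no gene lies below -0.14.

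The count of 15 depended on single arrays and on covariates that moved with the groups. Without exercised array 1, 5 or 7 it was 8 in each case, where 2.52%, 2.45% and 2.39% of all genes tested were called higher. Without exercised array 3 it was 9, against 2.56% of all genes. With the Gapdh 3′/5′ probe ratio, a measure of RNA integrity, as a covariate it was 7, against 2.36% of all genes. With the level of skeletal muscle markers as a covariate it was 2, against 1.41% of all genes. Without sedentary arrays 5 and 7, 13 members rose, against 4.05% of all genes.

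Within the large subunit 9 of 47 genes rose (19.1%), and within the small subunit 6 of 29 rose (20.7%), against 4.0% of all genes tested. The median differences were 0.19 for the large and 0.15 for the small subunit, with middle ranges of 0.05 to 0.28 and 0.07 to 0.25. The mean log2 level of the large subunit genes was 12.02 ± 0.10 (SD, n = 7) on sedentary and 12.20 ± 0.09 (n = 7) on exercised arrays. For the small subunit genes it was 11.91 ± 0.12 and 12.09 ± 0.09. In both subunits 7 of 7 exercised arrays were above the sedentary median and 4 of 7 were above the highest sedentary array, so the groups overlapped.

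Subtracting the small from the large subunit mean on each array gave 0.103 ± 0.043 (SD, n = 7, range 0.045 to 0.171) for sedentary and 0.105 ± 0.017 (n = 7, range 0.072 to 0.127) for exercised arrays. The balance between the subunits thus differed by 0.002 between groups, far less than its spread within either. The small subunit count was the less stable of the pair. It was 1 without exercised array 1, 5 or 7, to 2 without exercised array 3 and to 3 without sedentary array 3 or 4, whereas the large subunit count stayed between 7 and 10 when any 1 array was left out.

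**Figure D2:**
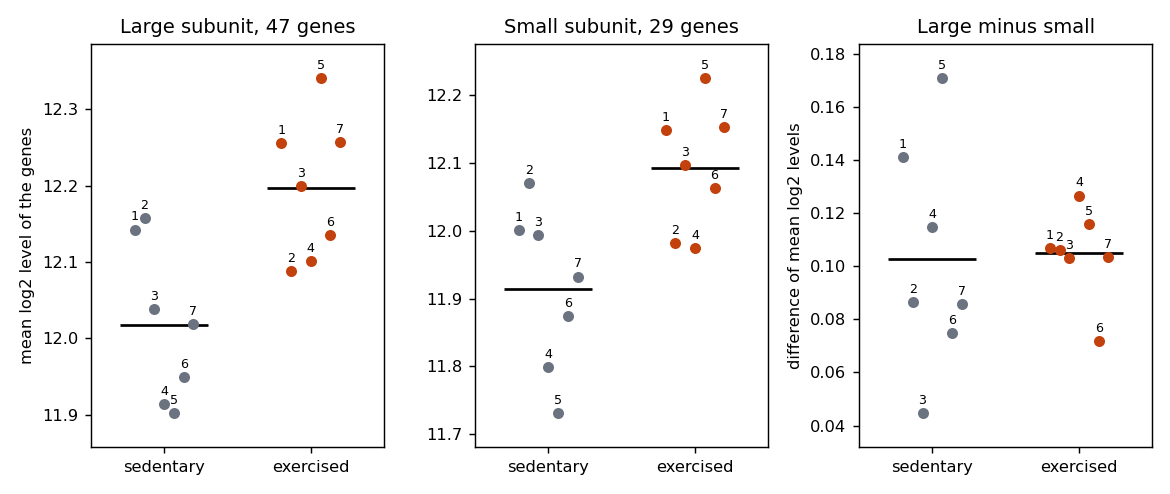
Mean log2 level of the large subunit genes, of the small subunit genes, and their difference on each array, with array numbers and group means as lines. Both subunit means are higher by about 0.18 in exercised tissue, with some overlap between groups, while the range of the difference between subunits in exercised tissue lies inside the sedentary range.

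The names do not fully match the structure of the ribosome. Mrps30 and Mrps18a are named for the small subunit but sit in the large one, and Mrps36 is now known as a component of 2-oxoglutarate dehydrogenase, an enzyme of the tricarboxylic acid cycle. With these 2 genes moved and Mrps36 left out, 10 of 49 large subunit genes and 4 of 26 small subunit genes rose, with medians of 0.19 and 0.14.

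Mrpl12, a protein of the flexible stalk that also binds the mitochondrial RNA polymerase, had the smallest p of all members. Its signals ran from 5668 over a median of 7358 to 9454 in sedentary samples, and from 8816 over 10372 to 11651 in exercised ones. The groups overlapped only through sedentary array 1, the highest of its group, and exercised array 6, the lowest of its own. The log2 difference was 0.49 (SE 0.10, 95% interval 0.29 to 0.70, adjusted p = 0.00874), and the gene passed the threshold in 26 of 28 alternative analyses. It did not pass in limma with the replicate number as a block (adjusted p = 0.0559) or with muscle markers as a covariate (adjusted p = 0.0657).

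Mrpl42, a large subunit protein without a bacterial counterpart, had signals of 6656.5, 7802 and 8914 (lowest, median, highest) in sedentary and of 8967, 11108 and 13502 in exercised samples. Every exercised array was above every sedentary array, though exercised array 4 exceeded the highest sedentary value only slightly. The log2 difference was 0.50 (SE 0.10, adjusted p = 0.0116), and the call held in 26 of 28 alternatives. It was lost in limma with the replicate block (adjusted p = 0.0712) and with the muscle covariate (adjusted p = 0.108).

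Mrpl15, which has a bacterial counterpart in the core of the large subunit, had signals of 3918, 4236 and 4890 in sedentary and of 4808, 5621 and 5969 in exercised samples, so that exercised array 4 lay just inside the sedentary range. It rose by 0.35 (SE 0.07, adjusted p = 0.0121). This gene had 8 probe sets, more than any other member. When all probe sets were tested one by one, a second probe set of Mrpl15 rose by 0.42 (adjusted p = 0.0107), while others ranged down to -0.11 (adjusted p = 0.597) among those above the filter.

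Mrps2, the counterpart of a bacterial small subunit protein, had signals of 2580, 2901 and 3707 in sedentary and of 3452.5, 4179 and 5144 in exercised samples. Sedentary array 1 (3707) was far above the other sedentary arrays and overlapped the lower exercised arrays 2 and 4. The gene rose by 0.50 (SE 0.10, 95% interval 0.28 to 0.71, adjusted p = 0.0105), and its other probe set differed by 0.21 (adjusted p = 0.265).

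Mrps16, in which mutations are known to cause a respiratory chain disorder, had signals of 3488, 4333 and 5020 in sedentary and of 4797, 5935 and 6895 in exercised samples. Only exercised array 4 lay within the sedentary range. It rose by 0.40 (SE 0.10, adjusted p = 0.0249).

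Mrps36 had signals of 3069, 3686 and 4811 in sedentary and of 3804, 5602 and 6362 in exercised samples. Exercised arrays 2 and 4 lay below sedentary array 1, and the other exercised arrays were above all sedentary ones. It rose by 0.50 (SE 0.12, adjusted p = 0.0249), and passed the threshold in 19 of 28 alternatives.

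**Figure D3:**
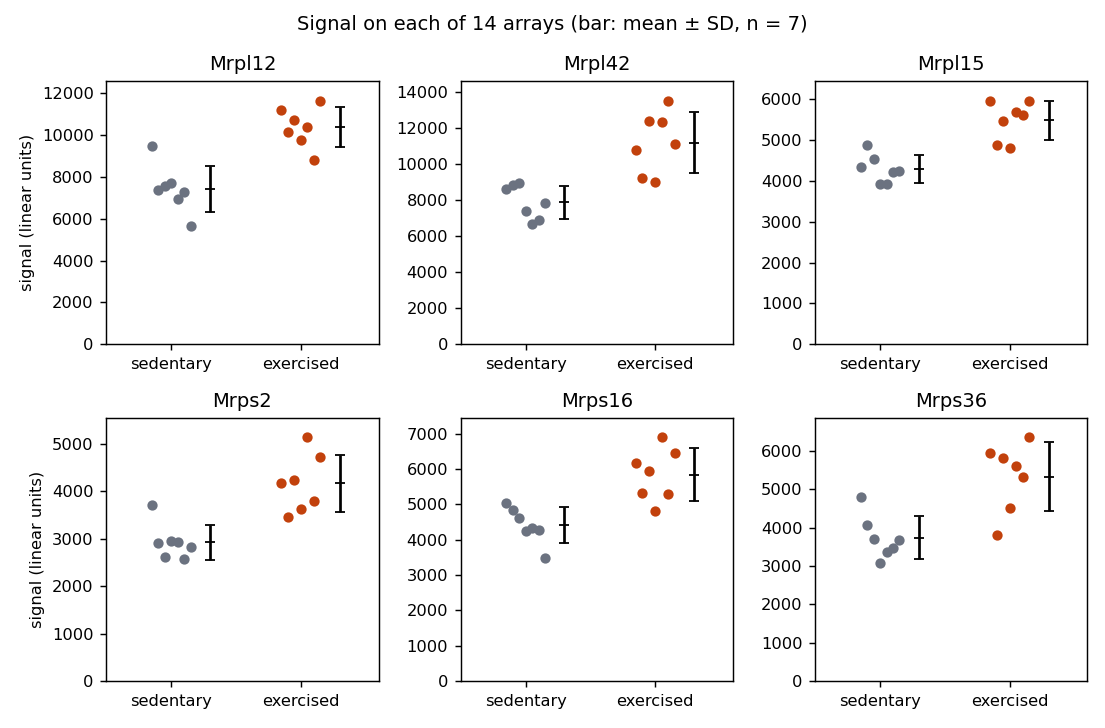
Signal on each array, in linear units, for the 3 large and the 3 small subunit genes with the smallest p, with mean and SD (n = 7) beside the points. All 7 exercised points are above the sedentary median for each gene, and in Mrpl42 the groups do not overlap.

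The other risen members of the large subunit were 6. Mrpl1, of the stalk beside the tRNA exit site, had signals of 953.9, 1194 and 1480 (lowest, median, highest) without exercise and 1429, 1684 and 1789 with it. It rose by 0.44 (SE 0.09, adjusted p = 0.0136), although another probe set of the gene differed by 0.05 (adjusted p = 0.819). Mrpl2, which lies close to the catalytic centre, had signals of 2960, 3964 and 4392 against 4175, 4999 and 5828 and rose by 0.37 (adjusted p = 0.0385). In both genes 6 of 7 exercised arrays were above every sedentary one.

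Mrpl39, Mrpl46, Mrpl55 and Mrpl51 lack a clear bacterial counterpart or, for Mrpl55, were left unclassed. Mrpl39 had signals of 6454, 8626 and 9388 against 9999.5, 10707 and 13764, and rose by 0.45 (adjusted p = 0.0156) and in 27 of 28 alternatives, more than any other member. The exception was limma with the replicate block (adjusted p = 0.0712). Mrpl46 had 1589, 1896 and 2417 against 2265, 2737 and 3564, and rose by 0.48 (adjusted p = 0.0217). Mrpl55 had 1911, 2441 and 2630 against 2694.5, 3005 and 3354, a rise of 0.39 (adjusted p = 0.0152). In Mrpl39 and Mrpl55 the groups did not overlap. Mrpl51, named here because it was called, had 11318, 14854 and 19185 against 16009, 19704 and 20654. It rose by 0.39 (adjusted p = 0.0385), with only 4 of 7 exercised arrays above all sedentary ones, and passed in 10 of 28 alternatives.

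In the small subunit, Mrps35 had signals of 2039, 2793 and 3268 against 3287, 3660 and 4383 and rose by 0.42 (adjusted p = 0.0268). Mrps5, which has a bacterial counterpart near the decoding centre, had 1179, 1429 and 1553 against 1581, 1731 and 1944, a rise of 0.33 (adjusted p = 0.0298). Its 4 other probe sets above the filter differed by 0.22, 0.16, 0.08 and -0.06 without passing, and the mean of all its probe sets differed by 0.14 (adjusted p = 0.424, the highest over its alternatives, from 0.0228). Mrps18a had 3390, 4473 and 4941 against 4616, 5553 and 6753 and rose by 0.38 (adjusted p = 0.0357). The groups overlapped in Mrps18a alone, and Mrps5 and Mrps18a passed in 17 and 15 of 28 alternatives.

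A further 16 members had an unadjusted p under 0.05 without passing, all with positive differences. The nearest to the threshold were Mrps24 (0.25, SE 0.07, adjusted p = 0.0576) and Mrpl34 (0.35, adjusted p = 0.0578), followed by Mrpl10 (0.24, adjusted p = 0.0705) and Mrpl16 (0.32, adjusted p = 0.0736). The last 3 were named after their values were seen.

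Exercised and sedentary signals did not overlap, with all 7 exercised values higher, in 5 of 76 members (6.58%), where 1.95% of all genes tested showed this. These were Mrpl42, Mrpl55, Mrpl39, Mrps35 and Mrps5. The gap was narrow in Mrpl42, Mrps35 and Mrps5 and widest, relative to the signal, in Mrpl39.

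Of the 3 related Mrps18 genes only Mrps18a, whose product sits in the large subunit, passed the threshold. Mrps18b differed by 0.21 (95% interval 0.03 to 0.39, adjusted p = 0.167) and Mrps18c by 0.22 (0.05 to 0.38, adjusted p = 0.119). The intervals of all 3 overlap, and no difference between them was tested. Mrps30, the other protein of the large subunit with a small subunit name, differed by 0.26 (SE 0.10, adjusted p = 0.131).

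Other members named for their roles showed small differences that did not pass. Mrps12, a protein of the decoding centre, had signals of 4381 ± 207.8 (SD, n = 7) without exercise and 4651 ± 411.8 (n = 7) with it, a difference of 0.08 (95% interval -0.06 to 0.23, adjusted p = 0.506). Mrpl11, at the base of the stalk that carries Mrpl12, differed by 0.10 (adjusted p = 0.523). Mrpl44, which has the fold of an RNase III enzyme, differed by 0.07 (adjusted p = 0.581), Mrpl3 by 0.08 (adjusted p = 0.652) and Mrps22, another gene linked to inherited disease, by 0.09 (adjusted p = 0.648).

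The lowest differences in the large subunit were those of Mrpl19 (-0.14, SE 0.11, adjusted p = 0.466) and Mrpl54 (-0.12, SE 0.09, adjusted p = 0.48). In the small subunit they were those of Mrps6 (-0.08, SE 0.16, adjusted p = 0.796) and Mrps25 (-0.06, SE 0.08, adjusted p = 0.703). For Mrpl54 none of the 7 exercised arrays was above the sedentary median, but its standard error reached close to the size of its difference. Another probe set of Mrpl19 differed by 0.15 (adjusted p = 0.489), opposite in sign, and a further one by -0.16 (adjusted p = 0.46). Mrps6 had the widest error of all members, its sedentary signal being 7631 ± 1929 (n = 7) and its exercised signal 7037 ± 913.4 (n = 7).

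The remaining probe sets of these genes gave mixed readings. Of the 80 probe sets not chosen, 58 passed the filter, 44 of them with the sign of the chosen probe set, and 1 was called higher. Of the 14 that passed the filter and belong to members that rose, 12 had a positive difference. In Mrps14, a probe set above the filter differed by 0.66 (limma, adjusted p = 0.122), more than any chosen probe set. The chosen probe set of Mrps14 differed by 0.07. When a gene's probe sets were averaged instead, 11 members rose, all of them among the 15, against 3.41% of all genes tested.

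Members were also divided by descent. Of 46 members with a bacterial counterpart, 8 rose (17.4%), with a median of 0.18. Of 28 without one, which were gained in the evolution of mitochondria, 5 rose (17.9%), with a median of 0.14. Mrps36 and Mrpl55 were put in neither class.

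The members varied together only moderately. After subtraction of group means, the median Pearson correlation between members over the 14 arrays was 0.35 across 2850 pairs, 0.348 within the large subunit, 0.35 within the small and 0.357 between the subunits. Subunits of complex I, the first enzyme of the respiratory chain, had a median of 0.779 among themselves and of 0.501 with the members. Cytosolic ribosomal proteins had 0.615 among themselves and -0.233 with the members. All these values share the same 14 arrays and their scaling.

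Complex I subunits and the proteins of the cytosolic ribosome, which translates nuclear messages, were set beside the members. Subunits of complex I were taken by their Nduf gene names, Ndufa4 among them, and the place of each protein was not checked. Of these, 28 of 34 rose (82.4%), with a median of 0.50. The count was 11 with the muscle covariate, against 1.41% of all genes tested, and 17 with the Gapdh covariate, against 2.36%. The medians were 0.47 in both. The subunits with the smallest p were Ndufv2 (0.67, adjusted p = 0.000555), Ndufs1 (0.78, adjusted p = 0.00208) and Ndufa5 (0.60, adjusted p = 0.00303). Of 48 cytosolic ribosomal proteins 0 were called higher or lower by limma, where an unadjusted p under 0.05 gives 1 higher and 9 lower, with a median of -0.10 and 40 negative differences. That median lay between -0.14 under quantile normalisation and -0.06 with arrays centred on their medians, where 13 were positive. In each of these alternatives 1 was called lower: without sedentary array 7, without sedentary arrays 5 and 7, with array weights, and with the filter at the 60th percentile. Rps6 differed by -0.23 (adjusted p = 0.0595) and Rpl7l1 by -0.23 (adjusted p = 0.115), while Rpl3l, a muscle paralogue, differed by 2.23 (SE 0.82, adjusted p = 0.13). The difference between these lists and the members was not tested.

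**Figure D4:**
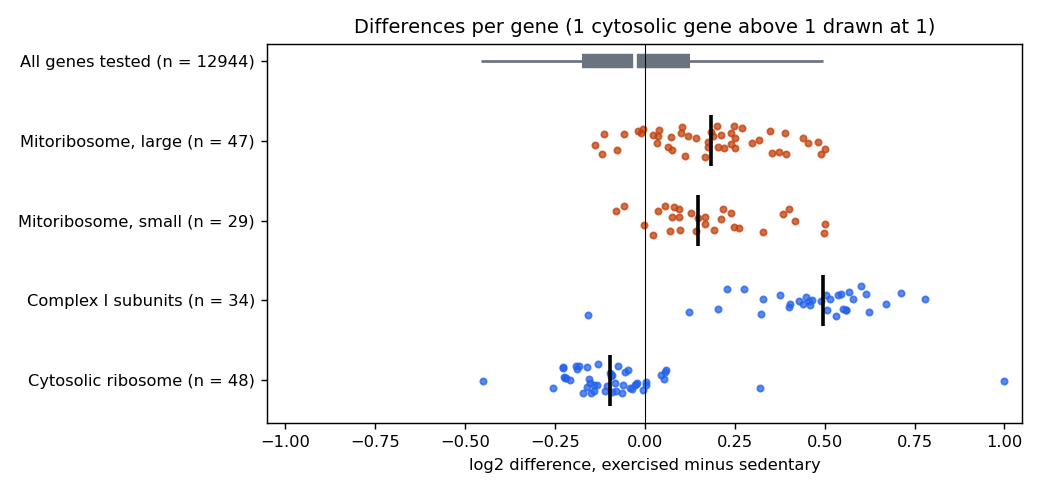
Log2 difference of each gene for the large and small mitoribosomal subunits, complex I and the cytosolic ribosome, with list medians as black lines, and the 5th, 25th, 50th, 75th and 95th percentiles of all genes tested as a box with whiskers. The mitoribosomal medians of 0.19 and 0.15 lie between those of complex I (0.50) and the cytosolic ribosome (-0.10).

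Other genes of mitochondrial translation moved in part. Among 11 translation factors tested, 4 rose (36.4%), with a median of 0.25. Without exercised array 1 or 5 the count was 2, against 2.52% and 2.45% of all genes tested. It was also 2 with the muscle covariate, against 1.41%, where the median was 0.11. The median was 0.15 without sedentary array 7, 0.16 without exercised array 7 and 0.14 with array weights. Gfm1, the elongation factor that moves the ribosome along the message, went from 2947 ± 420 (n = 7) to 4395 ± 392.4 (n = 7) and rose by 0.58 (SE 0.10, adjusted p = 0.00352). Tufm, which brings aminoacyl-tRNA to the ribosome, rose by 0.41 (adjusted p = 0.0101), and the initiation factor Mtif2 by 0.31 (adjusted p = 0.0237). Gfm2, which acts in ribosome recycling and was named because it was called, rose by 0.42 (adjusted p = 0.0368).

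Mitoribosomal proteins with other names were 4 in number among genes tested, and 1 rose. This was Ptcd3, a small subunit protein of the pentatricopeptide family, by 0.40 (SE 0.06, adjusted p = 0.00304). Chchd1 differed by 0.21 (adjusted p = 0.22), and Gadd45gip1 by 0.18 (adjusted p = 0.295).

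Of 24 assembly and ribosomal RNA modification factors tested, 0 were called higher and 1 lower, with a median of 0.06 and 16 positive differences, where limma's unadjusted p under 0.05 gives 3 higher and 2 lower. The gene that fell was Rpusd4, which modifies the large ribosomal RNA of mitochondria, from 1152 ± 84.6 (n = 7) to 824.1 ± 81.0 (n = 7), a difference of -0.46 (SE 0.08, adjusted p = 0.00519). Mterf4, which acts in assembly of the large subunit, differed by 0.28 (adjusted p = 0.108) and Gtpbp6 by -0.89 (SE 0.32, adjusted p = 0.119).

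Among 14 regulators of nuclear genes for mitochondria 4 rose and 0 fell, with 7 positive and 7 negative differences. With the muscle covariate 1 rose, against 1.41% of all genes tested. The 4 that rose without it were the coactivators Ppargc1a (1.10, adjusted p = 0.0307; named because it was called) and Ppargc1b (0.98, adjusted p = 0.0141), the receptor Esrra (0.73, adjusted p = 0.00248) and the mitochondrial RNA polymerase Polrmt (0.34, adjusted p = 0.0237), the partner of Mrpl12.

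Markers of some other cells moved with the groups. Sedentary and exercised mean log2 levels were close for mature adipocyte (14.86 and 14.87), endothelium (11.61 and 11.60), epithelium (9.02 and 9.03) and adipocyte progenitor markers (13.47 and 13.46). Among mature adipocyte markers 8 of 9 were positive, and Lep was negative (-1.41, adjusted p = 0.105). The epithelium marker Epcam fell (-0.57, adjusted p = 0.0494). All 18 skeletal muscle markers had positive differences, with a median of 2.75, although 0 of 18 passed the threshold in limma, against 13 at an unadjusted p under 0.05. Their mean log2 level was 9.90 ± 1.81 (range 8.38 to 13.01, n = 7) in sedentary and 12.45 ± 2.64 (range 8.70 to 15.06, n = 7) in exercised samples. All 10 brown and beige adipocyte markers were positive, Dio2 by only 0.0065, and 6 rose, against 45.0% and 4.0% of all genes tested. The mean levels of these 10 markers ran from 8.75 to 11.57 in sedentary and 11.63 to 13.11 in exercised samples. All 11 macrophage markers were negative and 1 of them fell, with mean levels of 12.51 ± 0.39 (n = 7) and 12.17 ± 0.14 (n = 7). All 9 lymphocyte markers tested were negative too, with a median of -0.65, and 0 passed in limma, adjusted or unadjusted. Their mean levels were 11.96 ± 1.35 (n = 7) and 11.29 ± 1.38 (n = 7), and no exercised array was above the sedentary median. Exercised array 5, the lowest in lymphocyte markers, had the highest member level (12.30). The log2 ratio of 3′ to 5′ Gapdh probes was -0.45 ± 0.07 (n = 7) without and -0.40 ± 0.06 (n = 7) with exercise. No marker of these lists was below the filter, and the part of these shifts in the differences of the ribosomal genes was not tested.

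Muscle signal varied between arrays of both groups. Exercised arrays 1 and 4, with muscle marker means of 8.99 and 8.70, had mean member levels of 12.21 and 12.05. The sedentary arrays lowest in muscle (8.47 on array 2, 8.38 on array 4 and 8.39 on array 7) had member levels of 12.12, 11.87 and 11.99, so that array 2 was above exercised array 4. Sedentary array 3, with the highest muscle mean of its group (13.01), had a member level of 12.02. With the muscle mean as a covariate the median difference of the members was 0.15, against 0.17 without it, while Mrpl46 (0.58, SE 0.13, adjusted p = 0.0382) and Mrpl39 (0.50, SE 0.12, adjusted p = 0.0484) were the 2 members that rose. Over the 28 alternatives the adjusted p of Mrpl46 lay between 0.00997 and 0.0806 and that of Mrpl39 between 0.0104 and 0.0712.

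**Figure D5:**
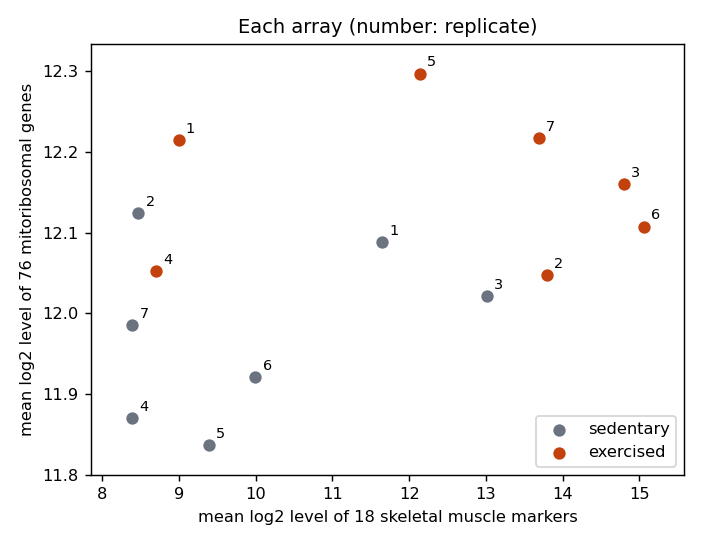
Mean log2 level of the 76 mitoribosomal genes against that of 18 skeletal muscle markers on each array, numbered by replicate. Exercised arrays 1, 4 and 5 have muscle levels within the sedentary range, with member levels of 12.21, 12.05 and 12.30.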

How the data were processed

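The deposited values are microarray signal intensity on a linear scale, covering 45101 probe sets on 14 arrays. The authors used MAS5, per the submitters' processing notes, with version and settings not given in the sources used here. A trimmed mean of 1500 (2% left out at each end) was computed as a single value, not array by array. Where arrays are scaled to a common mean, differences in total RNA are removed. Groups come from the titles. The members and lists were chosen with earlier results of these data known.

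Values were transformed as log2(signal + 46.7), the 10th percentile of all values, so folds of weak genes are understated. Probe sets with a mean under 389.8, the 40th percentile, and 64 controls were left out. A single platform symbol was held by 34945 probe sets, several by 932 and none by 9160; only the first entered tests, with symbols updated through GRCm38.p6 for 34741. The probe set with the highest mean stood for its gene.

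The comparison used limma (version 3.58.1, R version 4.3.3; eBayes with a trend, two-sided) and Benjamini-Hochberg adjustment across 12944 genes and a threshold of 0.05. Code was tested on simulated data. Lists and subunits were described by counts and medians, with no test. Arrays limit precision by their number, 7 per group. The rule for named genes took, in each subunit, the 8 members with the smallest p, members called lower and the 2 lowest differences, a panel of 13 by role, and 3 genes of each pathway list. Alternatives covered scaling, pseudocounts, filters, probe sets, variance model, array weights, covariates, the replicate number as a block and left-out arrays. The numbers were not taken as pairs. Same-numbered arrays deviated together in 3 of 7 pairs, and the correlations of the other pairs were negative, from -0.081 to -0.425. Promoter windows came from RefSeq; no protein sequences were used here.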

Additional observations from a re-analysis of the deposited data

Results flagged for a closer look

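In 60 groups of 7 arrays examined, 2 held an array far from the others, where chance gives about 1 in 20. For Mrps2, sedentary array 1 had a signal of 3707 against 2946 on the next highest sedentary array, a gap of 0.675 of the group's range. For the difference between large and small subunit means, exercised array 6 had 0.072 against 0.103 on the next lowest exercised array, a gap of 0.572 of the range.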

How the results depend on the processing

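No member fell in any of the 28 alternatives, and 57 of 76 kept a positive difference in all of them. The count of 15 risen members (9 large, 6 small) went to 2 (2 and 0) with muscle markers as a covariate, where 183 of 12944 genes were called higher. It went to 7 (5 and 2) with the Gapdh 3′/5′ ratio as a covariate, where 306 of 12944 were. With the replicate number as a block it was 0 (0 and 0), where 136 of 12944 genes were called higher, and Mrps2 then had an adjusted p of 0.0526 (0.0058 to 0.0657 over the alternatives). Under the block 7 of 34 complex I subunits, 1 of 11 translation factors and 1 of 14 regulators rose, and neither Ptcd3 nor Rpusd4 passed. Whether the numbers pair the arrays could not be settled. Correlations of same-numbered arrays ran from -0.425 to 0.381, and 3 of 7 exercised arrays correlated best with their own number. Leaving out 1 array at a time gave 8 to 17 risen members, 7 to 10 in the large and 1 to 7 in the small subunit, with medians of 0.15 to 0.22 and 0.12 to 0.18. Between 2.39% and 4.57% of all genes tested were then called higher. Among single genes, Mrps22 turned to -0.028 with array weights. Quantile normalisation and median centring each left the count at 15, with 14 and 15 of the same genes, where 3.9% and 4.23% of all genes tested were called higher. The causes were not tested.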
